A study of Homo sapiens with 10 samples.

Results

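The genes described here are the RNA helicases whose names begin with DDX or DHX. They were taken from the table of gene counts as every protein-coding row whose GENCODE release 29 name starts with DDX or DHX and a digit, leaving out 2 genes that are not reported here, which gave 53 of 58721 rows. The set holds DDX3X, the gene that was edited, so the other members could be read against it: whether their transcripts rose with it, fell against it or stayed where they were.

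The samples were single-cell clones of a human lymphoma line that the labels call U2392. Before cloning, all cells had been electroporated with a plasmid for Cas9-GFP and the guide and with a repair template, whose silent changes altered the PAM and made a SpeI site. In 4 samples the template also carried R475C, which exchanges an arginine in the helicase core of DDX3X for cysteine, and in the 6 wild-type samples it carried the wild-type codon, so the wild-type group had been through the same editing. Poly(A)-selected RNA was sequenced, and the libraries held 8928539 to 53779005 counts. The labels do not say which samples are separate clones and which are cultures of the same clone, so p-values here reflect sample-to-sample spread alone, and part of it may be technical. The B-cell transcripts MS4A1, PAX5, CD22, CD79A and CD79B were at 266 CPM or more in every sample. Of 13 markers of T cells, myeloid cells, epithelium and fibroblasts, CD3D, CD3G, KRT18 and COL1A2 were at 0 in all 10 samples and CD3E, CD14, LYZ, CSF1R and KRT8 stayed at or below 0.747 CPM. EPCAM lay between 16.4 and 37.2 CPM, COL1A1 between 0.132 and 3.71, DCN between 0 and 14.8 and LUM between 0 and 2.93. CPM is a gene's count relative to its library's size after TMM scaling. Samples also fell into sets that cross the genotypes and that the labels do not give. Wild-type replicates 1 and 4 with R475C replicates 1 and 3 are called set A, and the other 6 samples set B. After the mean of each genotype had been removed, wild-type and R475C samples of the same set correlated at 0.07 to 0.52 over all tested genes, and samples of different sets at -0.59 to -0.15. The sets were seen in an earlier analysis of these data, so these correlations describe the sets and are no test of them. What the sets stand for was not tested.

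DEAD-box (DDX) and DEAH-box (DHX) proteins use ATP to open short RNA duplexes or to strip proteins from RNA, and most steps of RNA life have their own members. DDX3X helps ribosomes start on messages with structured leaders, DEAH-box proteins remodel the spliceosome step by step, and a large nucleolar group shapes ribosomal RNA. DDX3X is recurrently mutated in B-cell lymphomas, with many of the changes in its helicase core.

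The sequence around the edited codon is shown because all comparisons turn on this change. The stretch is coding and falls in exon 13 (transcript ENST00000644876.1 has 17 exons), at chrX:41346318-41346356 on the plus strand (GRCh38), with the codon for the arginine in capitals at 41346336 to 41346338. The transcript encodes a protein of 662 residues. The sequence is that of the reference transcript (GENCODE release 29), and the alleles of the clones were not read from these data.
DDX3X edited codon: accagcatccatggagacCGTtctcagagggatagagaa

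DDX3X (ENSG00000215301.10, plus strand of chromosome X, 41333284 to 41364472) was higher in every R475C sample. In the 6 wild-type samples DDX3X was at 357 CPM at the lowest, 409.7 at the median and 551 at the highest, and R475C replicates 1 to 4 held 982, 944, 1047 and 754 CPM. The groups did not overlap, and the highest wild-type sample was replicate 1. The means were 932 ± 126 CPM (SD, n = 4) and 421 ± 70.5 CPM (SD, n = 6), so that R475C was 2.21-fold higher (1.15 on the log2 scale, SE 0.13, 95% interval 0.86 to 1.43, adjusted p = 0.00194 by edgeR's quasi-likelihood test). Reassigning the genotypes among the samples, an exact permutation test (two-sided) gave p = 0.00476, the smallest that its 210 arrangements allow. The difference was present within each sample set, at 1.17 (SE 0.20) on the log2 scale in set A and 1.07 (SE 0.12) in set B.

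No other helicase passed the test. Of the 53 members, 47 passed the low-count filter, and of these 1 was called higher (DDX3X) and 0 lower by edgeR at an adjusted p under 0.05. Over all 17045 genes tested, 2.46% were called, 1.31% higher and 1.15% lower. With DDX3X set aside, 28 of the other 46 had a log2 fold change above 0 and 18 below, between -0.31 (DDX39A) and 0.46 (DDX50). Among all tested genes 50.3% were above 0. The median of the 46 was 0.02, beside 0.00 over all tested genes. Adjusted p-values of these 46 ran from 0.107 to 0.991 (edgeR). At an unadjusted p under 0.05 there was 1 higher, DDX51, and 1 lower, DDX39A, where 8.45% and 8.86% of all tested genes lay. The count of higher ones was 0 in 6 of the 10 fits that each left out 1 sample and 5 without wild-type replicate 1. The share of all genes at that p in these fits was not taken. Without wild-type replicate 1 the genes called at an adjusted p under 0.05 also rose, from 419 to 794 (edgeR). DESeq2 called DDX39A lower. DDX3X was the only member whose samples did not overlap between the genotypes, a pattern seen in 6.11% of tested genes (3.19% higher and 2.93% lower).

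A missed threshold does not show that a transcript stayed level, so each member's 95% interval was set against fixed sizes. The whole interval lay within a 1.5-fold difference either way for 42 of the 46 other members. Among all tested genes 46.3% had an interval that narrow, and 72.3% of those at 10 CPM or more in wild-type, the level of 45 members. Within 2-fold lay 43 of the 46, and 70.3% of all tested genes. The exceptions to the 1.5-fold bound were DDX21, DDX50, DHX32 and DHX58, of which only DHX58 lay within 2-fold. Their intervals reached 1.102, 1.003, 1.23 and 0.83 on the log2 scale, so for them the samples still allow a rise past 1.5-fold. DHX32 could also have fallen, with a lower bound of -0.92.

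**Figure D1:**
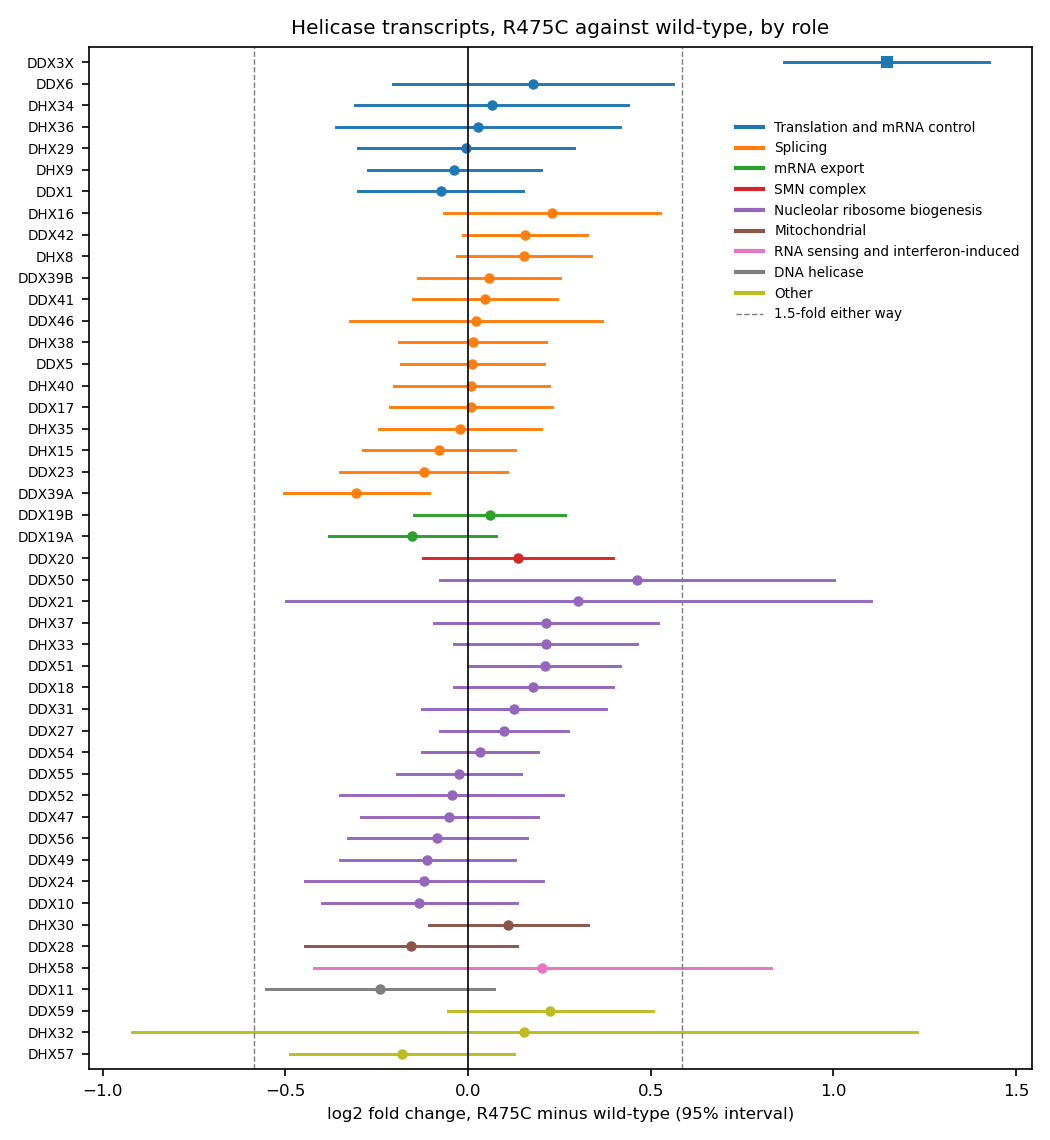
Log2 fold change of each of the 47 tested helicases (x axis, R475C minus wild-type, points) with its 95% interval (bars), grouped and coloured by role. The square marks DDX3X at 1.15, the only member past an adjusted p of 0.05, and dashed lines mark 1.5-fold either way.

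The summed level of the other members did not separate the genotypes. Without DDX3X the other 52 members summed to 6293 ± 549 CPM in wild-type and 6401 ± 409 CPM in R475C. The R475C sums of 6627, 6713, 6454 and 5808 CPM for replicates 1 to 4 all lay inside the wild-type range of 5734 to 7283 CPM. DDX3X itself made up 6.24 ± 0.458% of the helicase transcripts counted in wild-type and 12.7 ± 1.03% in R475C. The wild-type shares ran from 5.66% to 7.03% and the R475C shares from 11.5% to 14.0%, without overlap. These sums weigh a long transcript more than a short one and are given without a test.

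The rank of DDX3X among the helicases moved with the edit. Levels of different genes were compared per length, as RPKM over the merged exons of each gene. DDX5 and DDX17, closely related proteins of splicing and transcription, had the highest levels in both genotypes, at 94.95 ± 6.74 and 89.5 ± 8.10 RPKM in wild-type and 95.7 ± 11.3 and 89.9 ± 12.0 in R475C. These 2 neighbours in the order did not differ beyond their spread. Next in wild-type came DHX9 (81.7 ± 11.0), an RNA and DNA helicase of the nucleus, DDX21 (71.8 ± 35.4) and DDX39A (68.1 ± 6.70), whose ranges overlap. DDX3X stood at 26.5 ± 4.44 RPKM in wild-type, position 12 of 53, and at 58.6 ± 7.92 in R475C, position 6. Its neighbours in wild-type, DDX49 (27.2 ± 3.22) and DHX30 (24.3 ± 2.30), were within its spread. The merged exons of DDX3X span 15892 bases, more than any 1 transcript. With the length of the principal transcript (6907 bases) in their place, DDX3X was at 61.0 RPKM in wild-type and 134.9 in R475C, positions 8 and 4, and DDX17 stood above DDX5.

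Among the helicases of translation and mRNA control, none followed DDX3X past the test. DHX29, which helps the small ribosomal subunit through structured leaders and so works closest to DDX3X, had a log2 fold change of -0.01 (SE 0.14, 95% interval -0.30 to 0.29). DHX36, which opens G-quadruplexes, stood at 0.03 (SE 0.18), and DHX34, a factor of nonsense-mediated decay, at 0.06 (SE 0.17). DHX9 (-0.04) and DDX1 (-0.07) lay as close to 0. The largest difference was in DDX6, which represses translation and promotes decapping, at 0.18 (SE 0.18, adjusted p = 0.666 by edgeR). Wild-type replicate 1 held 395 CPM of DDX6 against 225 to 249.7 elsewhere in its group. R475C replicates 1 to 4 held 288, 291, 377 and 229.8 CPM.

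The 14 helicases of splicing lay between -0.31 and 0.23, with a median of 0.01, and 0 passed the test. DDX39A, a close relative of the export and splicing factor DDX39B, had the lowest value of the whole family. It was at 222 CPM at the lowest, 263 at the median and 294 at the highest in wild-type, and at 230.4, 217, 203 and 196 CPM in R475C replicates 1 to 4. R475C replicates 2 to 4 lay below every wild-type sample and replicate 1 within their range. The log2 fold change was -0.31 (SE 0.09, 95% interval -0.50 to -0.11, adjusted p = 0.107 by edgeR and 0.0342 by DESeq2). DDX39B did not move alongside, at 0.06 (SE 0.09), and 29.7% of its exon bases are shared with a read-through transcript. DDX42, of the U2 particle, was at 138, 142 and 164 CPM (lowest, median and highest) in wild-type and at 174, 162, 165 and 147 in R475C replicates 1 to 4. Its log2 fold change was 0.16 (SE 0.08, adjusted p = 0.333, edgeR). The highest wild-type sample, replicate 1, was above 2 of the 4 R475C samples. The DEAH-box proteins that drive the steps of splicing stood at 0.23 (DHX16), 0.15 (DHX8), 0.01 (DHX38) and -0.08 (DHX15), with intervals that all include 0. Further members were DDX41 (0.05), DDX46 (0.02), DDX5 (0.01), DHX40 (0.01), DDX17 (0.01), DHX35 (-0.02) and DDX23 (-0.12).

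In the nucleolar group, 9 of 16 members had a value above 0, the median was 0.07 and 0 passed. DDX51, which acts on the large ribosomal subunit, held 62.6 to 68.2 CPM in wild-type (median 66.9) and 89.9, 79.4, 63.2 and 74.7 CPM in R475C replicates 1 to 4. R475C replicate 3 lay within the wild-type range and the other 3 above it. The log2 fold change was 0.21 (SE 0.09, adjusted p = 0.279, edgeR), and 0.12 without R475C replicate 1. The wild-type spread was among the narrowest of any gene at 10 CPM or more (0.043 on the log2 scale, percentile 0.242). DHX33, which takes part in ribosomal RNA synthesis, held 47.6, 62.0 and 68.2 CPM (lowest, median and highest) in wild-type and 71.1, 80.1, 62.9 and 66.2 in R475C replicates 1 to 4, at 0.21 (SE 0.12, and 0.14 without R475C replicate 2). DHX37 (0.21), DDX18 (0.18), DDX31 (0.13), DDX27 (0.10) and DDX54 (0.03) were above 0. DDX55 (-0.03), DDX52 (-0.05), DDX47 (-0.05), DDX56 (-0.08), DDX49 (-0.11), DDX24 (-0.12) and DDX10 (-0.13) were below it. DDX47 shares 36.5% of its exon bases with APOLD1 on the same strand. DDX21 and DDX50 are described with the sample sets.

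The remaining tested members were few in each role. Of the helicases of mRNA export, DDX19A held 67.5, 76.3 and 87.8 CPM (lowest, median and highest) in wild-type and 68.9, 74.3, 58.9 and 73.5 in R475C replicates 1 to 4, at -0.15 (SE 0.11, and -0.08 without R475C replicate 3), and DDX19B stood at 0.06 (SE 0.10). They are close copies that may share reads, and both overlap a further annotated gene. DDX11, a DNA helicase of chromosome cohesion, held 67.8, 74.7 and 91.5 CPM in wild-type and 59.5, 78.7, 49.2 and 76.1 in R475C, at -0.24 (SE 0.14, adjusted p = 0.426, edgeR), with the 2 lowest R475C samples both in set A, and at -0.12 without R475C replicate 3. DHX57 held 31.3, 36.4 and 44.1 CPM in wild-type and 33.8, 36.5, 36.5 and 24.0 in R475C, at -0.18 (SE 0.14), and at -0.08 without R475C replicate 4. DHX30 (0.11) and DDX28 (-0.16) act on mitochondrial ribosomes, DDX20 (0.14) belongs to the SMN complex, and DDX59 (0.23) has no such assignment here. DHX58, a regulator of viral RNA sensing, was at 2.54 ± 0.902 CPM in wild-type and 2.96 ± 0.748 in R475C (0.20, SE 0.29).

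The 6 members that failed the low-count filter were DDX4, DDX25, DDX43, DDX53, DDX60 and DDX60L. The first 4 are known as germ-line or testis genes and the last 2 as interferon-induced genes. DDX4 and DDX53 had 0 counts in all 10 samples, which allows up to 0.0108 CPM over the 277814211 counts together (3 counts, for counting error only). DDX25 had 6 counts in all, DDX60 32, DDX43 43 and DDX60L 51. None of these 6 was tested.

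Correlation with DDX3X among the wild-type samples was positive for most members, and 0 of 46 relations passed adjustment. DDX3X separates the genotypes, so correlations of log2(CPM + 1) were computed over the 6 wild-type samples only, and R475C has too few. Pearson's r with DDX3X was above 0 for 36 of 46 members, beside 49.6% of all tested genes and 55.3% of those at 10 CPM or more in wild-type. The median r of the members was 0.72, beside -0.01 and 0.10. The highest values were those of DDX47 (r = 0.95, exact permutation p = 0.00278, rho = 0.94, p = 0.0167), DHX9 (r = 0.92, exact permutation p = 0.00139, rho = 1.0, p = 0.00278) and DHX15 (r = 0.90, exact permutation p = 0.00694, rho = 1.0, p = 0.00278). These were 3 of 46 relations, and after Benjamini-Hochberg adjustment 0 passed 0.05 for r or rho, the lowest adjusted p being 0.0639 for both (two-sided exact permutation of the 720 pairings). At an unadjusted p under 0.05 there were 10 of the 46 members, beside 10.6% of all tested genes and 13.4% of those at 10 CPM or more. Without wild-type replicates 1 and 4, the samples farthest from the DDX3X median, r was 0.88, 0.94 and 0.99 for these genes, and 38 of the 46 kept their sign. The lowest values were those of DDX51 (r = -0.68, exact permutation p = 0.169, rho = -0.03, p = 1.0), DDX19B (r = -0.54, exact permutation p = 0.253, rho = -0.66, p = 0.175) and DHX40 (r = -0.52, exact permutation p = 0.290, rho = -0.49, p = 0.356). Without the same 2 samples they were 0.54, -0.33 and 0.05. DDX19B held 20.1, 21.3 and 24.6 CPM (lowest, median and highest) in wild-type and 21.9, 22.5, 21.9 and 24.3 in R475C replicates 1 to 4, all within the wild-type range. DHX40 held 44.9, 50.2 and 56.8 CPM in wild-type and 47.1, 54.3, 44.5 and 55.7 in R475C, with only replicate 3 outside that range. Some wild-type samples lay close to each other over all tested genes. Replicates 2 and 6 correlated at 0.993, 3 and 5 at 0.993, 5 and 6 at 0.987 and 1 and 4 at 0.987. The other wild-type pairs ran from 0.971 (1 and 5) to 0.985 (2 and 3). The 6 may not be independent, and these values cannot decide it.

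In R475C the genes with the highest correlations stayed within their wild-type ranges. DDX47 was at 80.4 CPM in wild-type replicate 1, where DDX3X was highest, and at 55.8 CPM in replicate 4, where DDX3X was lowest. In R475C, with DDX3X above every wild-type value, DDX47 was at 63.3, 70.4, 63.7 and 57.6 CPM in replicates 1 to 4. DHX9 held 397, 457 and 546 CPM (lowest, median and highest) in wild-type and 468, 494, 434 and 402 in R475C. DHX15 held 315, 372 and 411 CPM in wild-type and 344, 394, 324 and 323 in R475C. For each of the 3 genes all R475C values lay inside the wild-type range, and the log2 fold changes were -0.05 (SE 0.11), -0.04 (SE 0.11) and -0.08 (SE 0.10).

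The largest differences among the samples, DDX3X aside, ran between the sample sets and not between the genotypes. In 7 of the 47 tested members all 4 samples of set A lay on 1 side of all 6 of set B, 5 higher and 2 lower in set A. Over all tested genes the share was 11.3%, 6% higher and 5.35% lower. The sets were drawn from these data, so these values are a description with no test, and the genes were chosen after their values were seen. DDX21, the abundant nucleolar helicase of ribosomal RNA synthesis, held 675, 470.3, 654 and 590.4 CPM in wild-type 1 and 4 and R475C 1 and 3, and 216 to 316 CPM in set B. Its paralogue DDX50 held 52.9, 51.0, 57.8 and 66.9 CPM in those samples and 25.1 to 39.8 in set B. DHX32 held 12.9, 8.35, 9.86 and 9.09 CPM and 2.21 to 4.84 in set B. All 3 genes therefore separated the sets with wild-type and R475C mixed on each side, and all 3 lie on chromosome 10.

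DDX50 (68901278 to 68946847) and DDX21 (68956128 to 68985073) are neighbours on the plus strand of chromosome 10 (GRCh38), and SUPV3L1, a mitochondrial RNA helicase from the list of relatives outside the DDX and DHX names, follows at 69180232 to 69209099. DHX32 lies much further along, at 125836337 to 125896436 on the minus strand. SUPV3L1 held 44.4, 37.1, 50.04 and 42.6 CPM in set A (wild-type 1 and 4, R475C 1 and 3) and 18.7 to 21.8 CPM in set B. The mean difference of set A minus set B, on the log2(CPM + 1) scale and averaged over the genotypes, was 1.20 for DDX21, 0.75 for DDX50, 1.07 for SUPV3L1 and 1.31 for DHX32. Over the 376 tested genes of chromosome 10 from DDX50 onward the median was 0.82, and 254 of them were higher in all of set A and 0 lower. Over all tested genes the median was 0.00. The 4 helicases thus shared their direction with the other genes of that arm, and the part of copy number in this was not tested.

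**Figure D2:**
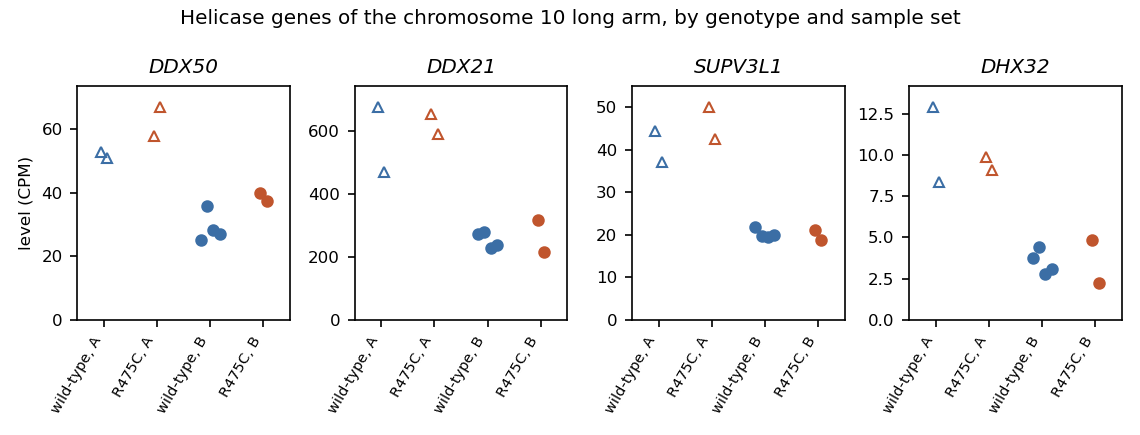
CPM of DDX50, DDX21, SUPV3L1 and DHX32 (y axes from 0) by genotype and sample set, 1 point per sample, triangles for set A and circles for set B. In each gene all 4 samples of set A lie above all 6 of set B, whichever the genotype.

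With a set term the genotype comparison had a smaller standard error for DDX21 and DDX50. The sets were drawn from these data and both genes split them, so the smaller spread follows by construction. Values with the term, p-values included, are therefore a description and no valid test. With the set as a covariate DDX21 stood at 0.09 on the log2 scale (SE 0.13, adjusted p = 0.730, edgeR), against 0.30 (SE 0.37, adjusted p = 0.735) without it. The latter value of DDX21 ran from 0.05 without R475C replicate 1 to 0.57 without wild-type replicate 1, and that of DDX50 fell to 0.30 without R475C replicate 3. DDX50 stood at 0.35 (SE 0.11, adjusted p = 0.0701) against 0.46 (SE 0.25, adjusted p = 0.373). DDX50 held 25.1, 32.0 and 52.9 CPM (lowest, median and highest) in wild-type, and within each set its R475C values lay above the wild-type ones, 57.8 and 66.9 against 52.9 and 51.0 CPM in set A and 39.8 and 37.3 against at most 35.7 in set B. DDX50 did not reach an adjusted p under 0.05 in either form (edgeR).

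Outside chromosome 10, DHX36 and DDX46 were higher in set A and DHX34 and DDX11 lower. DHX36, on chromosome 3, held 86.3 to 115.5 CPM in set A and 57.3 to 77.9 in set B. DDX46, a splicing factor on chromosome 5, held 222 to 285 CPM against 155 to 204. DHX34, on chromosome 19, held 43.8 to 67.9 CPM in set A and 68.3 to 80.4 in set B, with the ranges almost touching. DDX11, on chromosome 12, held 49.2 to 69.8 against 72.9 to 91.5 CPM. DDX3X could not be split by set, since its genotypes did not overlap and each set holds both. Its set difference was 0.20 on the log2 scale beside its genotype difference of 1.15. In R475C its set A samples (982 and 1047 CPM) lay above those of set B (944 and 754). In wild-type the sets overlapped, at 551 and 357 CPM in set A against 363 to 436 in set B.

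**Figure D3:**
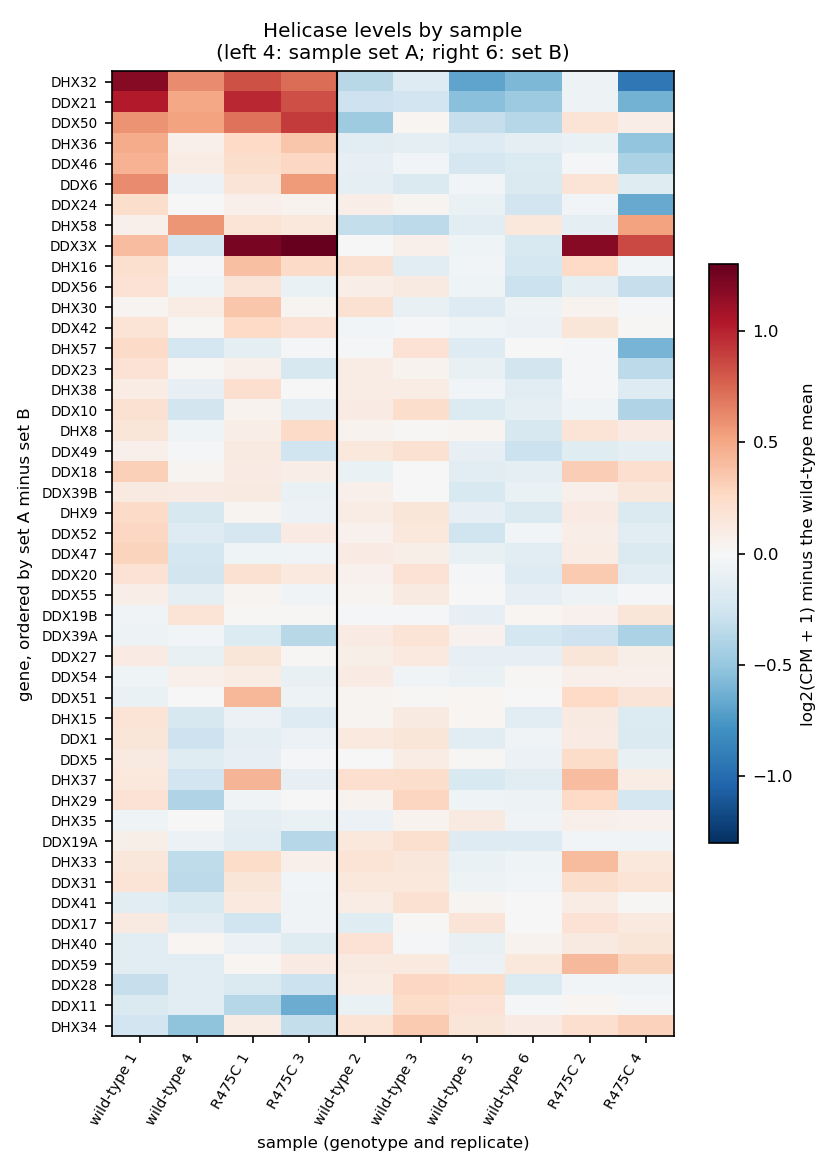
Level of each of the 47 tested helicases (rows, ordered by set A minus set B) in each of the 10 samples (columns), as log2(CPM + 1) minus the wild-type mean of that gene. DHX32, DDX21 and DDX50 at the top are high in the 4 samples of set A, and DDX3X is high in the 4 R475C samples of both sets.

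Promoter sequence was looked at for DDX3X, whose transcript differed between the genotypes, and for DDX21 and DDX50, the neighbouring paralogues that moved together across samples. RefSeq start sites (GRCh38.p14) were found by symbol for 48 of the 53 members, 42 of them tested. Each sequence holds the 250 bases before the RefSeq start on the plus strand, at chrX:41333058-41333307, chr10:68955920-68956169 and chr10:68901065-68901314. These starts lie past the GENCODE gene starts given above, so the end of each window falls inside the GENCODE gene. Capitals mark matches, on either strand, to 7 motifs. These are the CCAAT box, the GC box with the letters GGGCGG, and the TATA box with the letters TATAAA. The E-box was searched as CACGTG and the ETS site as CCGGAAG. The cyclic AMP element was searched as its palindrome TGACGTCA, and the NRF1 site as its 10-letter palindrome.
DDX3X: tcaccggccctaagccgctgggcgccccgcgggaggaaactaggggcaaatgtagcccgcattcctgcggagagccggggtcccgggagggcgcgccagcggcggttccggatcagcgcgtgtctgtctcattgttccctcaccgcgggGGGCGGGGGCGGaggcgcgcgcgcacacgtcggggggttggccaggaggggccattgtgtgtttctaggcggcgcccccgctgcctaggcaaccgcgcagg
DDX21: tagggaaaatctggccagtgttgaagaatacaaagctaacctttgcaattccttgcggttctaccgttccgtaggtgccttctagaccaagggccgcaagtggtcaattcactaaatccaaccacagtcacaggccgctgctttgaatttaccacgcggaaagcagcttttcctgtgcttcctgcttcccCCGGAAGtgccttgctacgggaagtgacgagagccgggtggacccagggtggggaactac
DDX50: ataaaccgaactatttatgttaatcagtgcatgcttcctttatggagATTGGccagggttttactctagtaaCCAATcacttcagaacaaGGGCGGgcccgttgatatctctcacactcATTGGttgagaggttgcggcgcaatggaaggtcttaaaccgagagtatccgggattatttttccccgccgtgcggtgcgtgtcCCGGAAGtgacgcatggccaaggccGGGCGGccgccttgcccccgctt

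The letters differ between the 3 promoters. DDX3X held 2 GC boxes and none of the other motifs in 250 bases that are 72.8% G or C. DDX21 held 1 ETS match at 53.2% G or C. DDX50 held 3 CCAAT boxes, 2 GC boxes and 1 ETS match at 52.8%, with the last GC box past the GENCODE gene start. Over the 42 tested members with a promoter, an ETS match was found in 15 (35.7%), a GC box in 25 (59.5%), a CCAAT box in 18 (42.9%), an E-box in 7 (16.7%), a cyclic AMP element in 5 (11.9%), and a TATA box and an NRF1 match in 2 each (4.76%). Over the 10289 tested genes with a promoter the shares were 16.2%, 66.1%, 35.3%, 9.0%, 2.84%, 5.25% and 2.08% in that order. A match is a run of letters in this window and not a measured binding site.

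RNA helicases outside the DDX and DHX names were taken from a list and gave 0 calls among 20 tested genes in either direction by edgeR. Over all tested genes 2.46% were called. An unadjusted p under 0.05 was reached by 3 higher genes and 0 lower ones, beside 8.45% and 8.86% of all tested genes. EIF4A1, the helicase of the cap-binding complex, had a log2 fold change of -0.10 (SE 0.11) and EIF4A3, the core of the exon junction complex, -0.12 (SE 0.09). EIF4A2, which can stand in for EIF4A1, was at 873 ± 143 CPM against 689 ± 78.3 in wild-type (0.34, SE 0.12, adjusted p = 0.150, edgeR). ZNFX1 was at 84.4 ± 7.24 against 67.2 ± 9.71 CPM (0.33, SE 0.11, adjusted p = 0.147). The third gene at that p was HELZ (0.31, SE 0.13, adjusted p = 0.219). The 95% intervals of EIF4A2 and ZNFX1 were 0.09 to 0.60 and 0.08 to 0.57.

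Of the proteins that switch these helicases on or off, 1 of 32 tested rows was called higher and 0 lower. Over all tested genes the shares were 1.31% and 1.15%. The list holds 31 names, of which PINX1 has 2 rows. It covers MIF4G-type partners of DEAD-box proteins, G-patch partners of DEAH-box proteins, and the further regulators EIF4B, EIF4H, PDCD4, GLE1 and CASC3. The call was EIF4G3, a scaffold that holds EIF4A on the cap-binding complex, at 167 ± 21.7 CPM in R475C and 125 ± 9.05 in wild-type (0.42, SE 0.09, adjusted p = 0.0414, edgeR), without overlap. It held in 2 of 10 fits that each left out 1 sample, with an adjusted p of 0.0477 to 0.108. CASC3, a partner of EIF4A3, stood at 0.21 (SE 0.07, adjusted p = 0.150, edgeR) and GPATCH11 at 0.22 (SE 0.08, adjusted p = 0.168, groups not overlapping). At an unadjusted p under 0.05 (edgeR) there were 4 higher and 2 lower, where 8.45% and 8.86% of all tested genes lay. The 2 lower were GPATCH3 (-0.26, SE 0.10, adjusted p = 0.218 by edgeR, groups not overlapping) and GPKOW (-0.23, SE 0.11, adjusted p = 0.288). Groups did not overlap in 2 higher rows and 1 lower row of the list, beside 3.19% and 2.93% of all tested genes. The largest difference of the list was that of PDCD4, an inhibitor of EIF4A, at -0.52 (SE 0.33, adjusted p = 0.457, edgeR), with 114.6 ± 53.7 CPM in wild-type and 79.9 ± 26.3 in R475C. GPATCH3, GPKOW and PDCD4 were chosen after their values were seen.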

How the data were processed

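RNA was sequenced from 6 wild-type and 4 R475C samples. The authors deposited 1 table of raw, whole-number counts. They used cutadapt 1.10, STAR 2.6.0c and featureCounts, per the submitters' processing notes, with a build and annotation that are not given in the sources here and an unknown strand setting. All 58721 gene IDs match GENCODE release 29 (GRCh38), the source of names, types, coordinates and exon lengths here. Of the 53 members 29 share exon bases with another gene, 7 of them at least 10%, and such genes can share reads.

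Groups and replicate numbers came from the sample titles. Genotypes were compared by edgeR 4.0.16 under R 4.3.3 (scaling by TMM, filterByExpr with a minimum count of 10 and total of 15, glmQLFit and glmQLFTest, genotype as the only term, two-sided), adjusted by Benjamini-Hochberg over 17045 genes. Standard errors are the log2 fold change over the square root of F, and intervals use the degrees of freedom of the test. The test was also run on simulated counts. These were drawn independently for each sample and without sample sets, so that run does not cover dependence between samples. CPM and RPKM were computed from the deposited counts. Per-sample values were given for DDX3X, called members, the 4 members with the smallest p in each direction, the 3 highest and 3 lowest correlations, and members chosen after their values were seen (DDX6, DDX21, DDX46, DHX32, DHX34 and DHX36). The members, lists and tests were chosen with earlier results of these data known. Library pairs of the same genotype (21) differed beyond sampling noise, with a chi-square per degree of freedom of at least 7.79. Each library was counted as 1 replicate, but these values cannot tell separate clones from cultures of the same clone. Alternatives were other scalings and filters, DESeq2 1.42.0, limma 3.58.1 (voom), a replicate block, the sample sets, and leaving out each sample.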

Additional observations from a re-analysis of the deposited data

Results flagged for a closer look

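In 100 sets of values (47 tested members and 3 family sums in 2 genotypes) the highest or lowest sample stood apart from the rest of its group in 8, where chance gives about 1 in 20. Wild-type replicate 1 was the sample in 5 of these. It held 148 CPM of DDX18 against 109 to 122 in the other wild-type samples, 164 of DDX42 against 138 to 146, 395 of DDX6 against 225 to 249.7, and 115.5 of DHX36 against 73.5 to 86.3. It was the lowest for DDX51, at 62.6 CPM against 66.1 to 68.2. R475C replicate 4, the shallowest library, held 20.5 CPM of DDX24 against 32.3 to 34.6 in the other R475C samples, and its summed helicase level, DDX3X included, was 6562 CPM against 7501 to 7657. R475C replicate 1 held 241 CPM of DHX30 against 185 to 194.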

How the results depend on the processing

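DDX3X was called higher in 20 of 21 alternatives, at 1.07 to 1.23 on the log2 scale, and without any 1 sample at 1.09 to 1.23. The exception was the replicate block, where it stood at 1.09 (adjusted p = 0.0543). With that block the members called higher numbered 0 and all calls 0. The labels do not say whether samples with the same number pair. Their deviations correlated at 0.39, 0.18, -0.32 and -0.23 for replicates 1 to 4. Samples numbered 1 and 2 share a sample set between the genotypes and those numbered 3 and 4 do not, so these values cannot decide on a pairing. DESeq2 called 1 member lower (DDX39A) and 1156 genes in all, and an adjusted p under 0.01 gave 80, against 419. The set covariate, drawn from these same data, gave 1128 genes. Without any 1 sample the calls over all genes ran from 142 (without R475C replicate 3) to 794 (without wild-type replicate 1), while the members called stayed at 1 higher and 0 lower and the members with an interval within 1.5-fold at 38 to 42. The 9 other members followed through the alternatives kept their direction and side of the threshold in 188 of 189 values. Members other than DDX3X higher at an unadjusted p under 0.05 numbered 5 without wild-type replicate 1 and 0 without wild-type replicate 2. The shares of all genes in these fits were not taken. The median correlation with DDX3X within wild-type was 0.71 with RLE and 0.65 with library-size scaling, both added after seeing the data, as was the principal transcript length. EIF4G3 was called in 7 of 21 alternatives.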
